A study of Arabidopsis thaliana with 15 samples.

Results

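Roots of 2 lines of Arabidopsis thaliana, P35S:rGRF1 and P35S:rGRF3, were compared directly, 3 arrays against 3, over all 22746 probe sets that are not controls. These 6 arrays are the ones whose titles name the lines, of 15 in the series. P35S:rGRF1 carries a variant of GRF1 that escapes the microRNA miR396, driven by the CaMV 35S promoter, and its ecotype label is Col-0. P35S:rGRF3 carries the matching variant of GRF3 from the same promoter, and its ecotype label is WS. The other groups were wild-type Col-0, wild-type WS and a triple grf1/grf2/grf3 mutant labelled with both ecotypes, 3 arrays each. All plants were 2 weeks old and were grown on modified Knop's medium at 23 degrees C, with 16 h of light and 8 h of dark, and total RNA came from roots. The 35S promoter is active in most cell types, so a transgene it drives is not limited to the cells that use the native gene. The labels name no independent lines. They leave unsaid whether the arrays of a group came from different plants or cultures, and the p-values then measure only the spread between these samples, which may be technical.

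Growth-regulating factors are plant transcription factors that act with GRF-interacting coactivators on cell proliferation in leaves and roots. In growing organs miR396 cuts most GRF transcripts, which confines the factors to dividing cells, and a form that resists the microRNA escapes this limit. In roots GRF1 and GRF3 are known for the balance between stem cells, dividing cells and differentiating cells. The transcripts of the GRF family, their coactivators and miR396 were not analysed here, so the labels of the lines could not be checked against the transgenes.

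The ecotype label of P35S:rGRF3 was compared with the data. At 128 probe sets Col-0 and WS differed by at least 4 log2 units with no overlap, 116 of them higher in Col-0. The P35S:rGRF1 arrays lay nearer Col-0 at 127, 126 and 126 of these probe sets, and the P35S:rGRF3 arrays at 124, 122 and 120. The WS arrays lay nearer Col-0 at 0, 1 and 0, and the triple mutant arrays at 4, 9 and 10. By these probe sets both lines thus read like Col-0, although the label of P35S:rGRF3 gives WS. The 18 hybridization control probe sets averaged 10.1 in each line, 9.85 in Col-0, 11.0 in WS and 10.8 in the triple mutant. In these array controls too both lines lay near Col-0 and the triple mutant near WS. Ecotype and array controls thus cannot be told apart in this count, and their part in it was not tested.

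**Figure D1:**
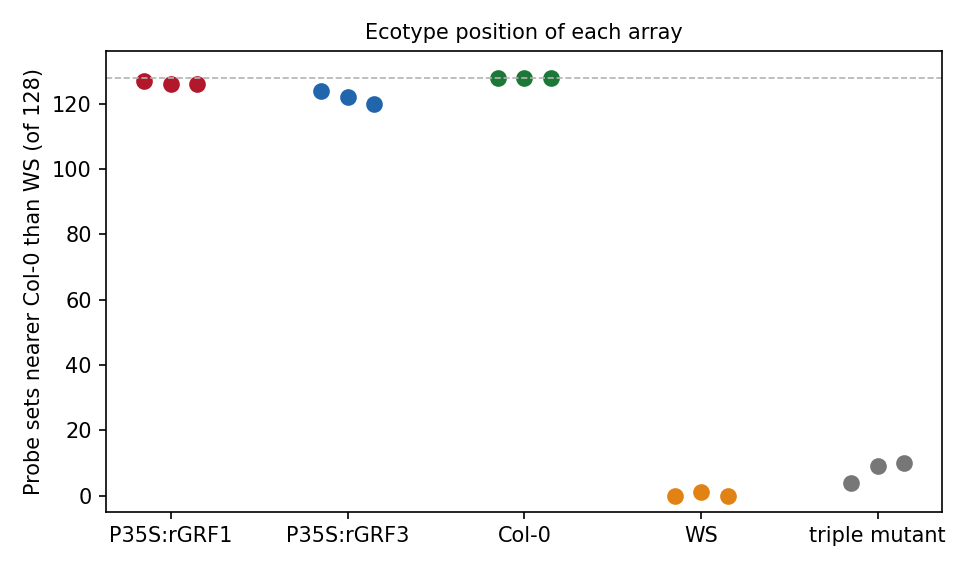
For each array (points, 3 per group, groups along the x axis), the y axis gives how many of the 128 probe sets that separate Col-0 from WS lay nearer the Col-0 mean. The P35S:rGRF3 arrays, at 120 to 124, sit beside the P35S:rGRF1 arrays at 126 and 127 and far above WS at 0 or 1.

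Array pairs within P35S:rGRF1 correlated at 0.9615 to 0.9621 over all probe sets, pairs within P35S:rGRF3 at 0.9464 to 0.9531, and pairs across the lines at 0.9368 to 0.9468. The median SD of the brighter probe sets was 0.124 log2 units in P35S:rGRF1 and 0.192 in P35S:rGRF3. The control probe set for 25S ribosomal RNA read 12.84, 12.88 and 12.91 in P35S:rGRF1, against 12.09, 11.997 and 10.96 in P35S:rGRF3. The 24 poly-A control probe sets, for RNA added before labelling, averaged 9.30, 9.34 and 9.73 in P35S:rGRF1, against 9.02, 8.78 and 6.96 in P35S:rGRF3. Replicate 3 of P35S:rGRF3 stood apart in both, and both controls were higher on every P35S:rGRF1 array. The part of these control signals in the results was not tested beyond a fit with the poly-A signal as a covariate. Of the 118 named genes 45 lost their call in that fit, and its adjusted p is given for those described below.

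Gene expression differed between the lines at 2732 of 22746 probe sets (12%), by limma with an adjusted p under 0.05, called here and below a call. Of these, 1528 (6.72% of those tested) were higher in P35S:rGRF1 and 1204 (5.29%) were lower. On 2689 of the 2732, the arrays of the lines did not overlap. Over all probe sets, every P35S:rGRF1 array lay above every P35S:rGRF3 array at 16.6% and below at 13.8%. The share of higher calls depended on the scaling. It was 55.9% on the deposited scale and 35.3% after centring each array on its median, with 979 higher and 1796 lower, and centring moved the median difference of all probe sets to -0.08 from 0.02. Without P35S:rGRF3 replicate 3 the count was 2688, and 2100 of those calls were also among the 2732. Without P35S:rGRF1 replicate 1 it was 1487, without P35S:rGRF1 replicate 3 it was 1706, and with the poly-A covariate it was 1162, 1045 of them among the 2732. Over the genes named on the array, counted once each, 10.3% were called, dim genes included. Probe sets with a line mean at or over the 40th percentile of mean signal are called bright in a line. They were 14112 of the 22746, and held 2523 of the 2732 calls. Calls were thus more frequent among bright probe sets. This is partly built in, since a high mean in either line is enough to count as bright. A filter at the 40th percentile of the mean over all arrays depends less on the line difference. It kept 13648 probe sets, and the fit on these called 2386 of the 2732. The counts for gene lists below are set against 10.3%, which is too low a measure for lists of mostly bright genes.

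Large differences were more often lower than higher in P35S:rGRF1. Among the calls, 98 probe sets were at least 4-fold higher in P35S:rGRF1 (2 log2 units) and 165 at least 4-fold lower. At 8-fold the numbers were 16 higher and 70 lower. The excess on the lower side held in each of the 18 alternative fits, at 8-fold with 4 against 15 after the filter on dim probe sets and 6 against 24 after adding 16 to every signal. Of the 12 genes named first in each direction below, 11 had a dimmer line mean under the 40th percentile of mean signal (6.85 on the log2 scale). The difference with 16 added to each signal is therefore given for the extreme ones.

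**Figure D2:**
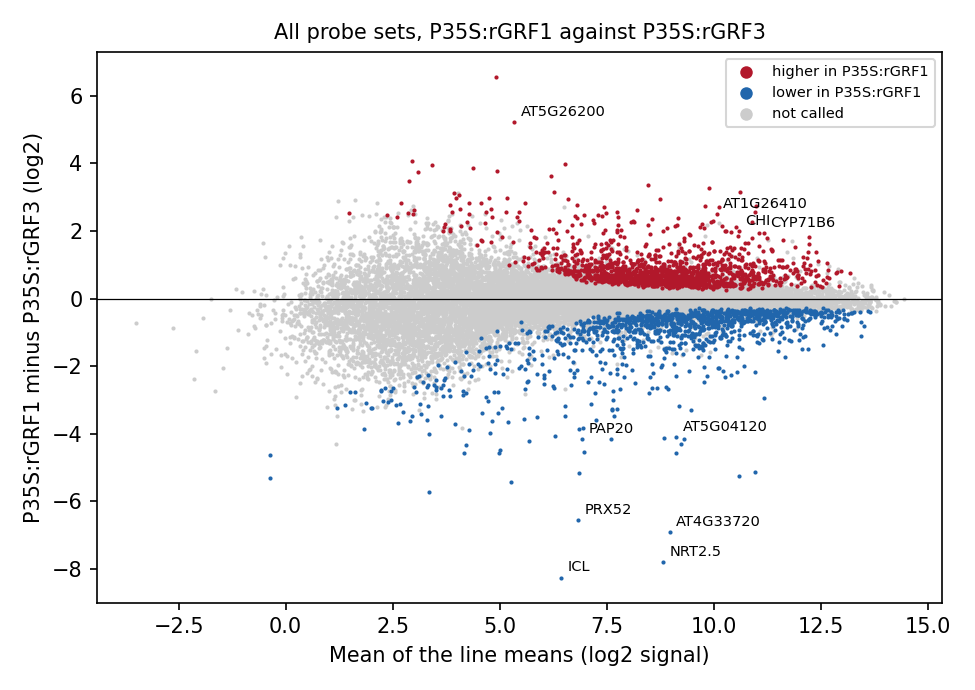
Each point is 1 of 22746 probe sets, with the mean of both line means on the x axis (log2 signal) and P35S:rGRF1 minus P35S:rGRF3 on the y axis (log2). Red points are the 1528 calls higher in P35S:rGRF1, blue points the 1204 lower, and the blue points reach further from 0, down to ICL at -8.26.

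ICL, NRT2.5, PRX52, PAP20 and BGLU28 were the named genes among the 12 largest differences lower in P35S:rGRF1. ICL (AT3G21720) encodes isocitrate lyase, an enzyme of the glyoxylate cycle that turns stored fat into sugar in seedlings. Its log2 signal was 2.61, 1.46 and 2.86 in P35S:rGRF1, against 9.76, 10.99 and 10.96 in P35S:rGRF3, a difference of -8.26 (SE 0.58, adjusted p = 3.67e-07). NRT2.5 (AT1G12940), a high-affinity nitrate transporter known from nitrogen-starved roots, read 5.24, 4.48 and 5.02 in P35S:rGRF1, against 12.59, 13.10 and 12.48 in P35S:rGRF3, a difference of -7.81 (SE 0.43, adjusted p = 3.5e-08). The lines were fully separated at both genes, with every P35S:rGRF1 array below the 40th percentile. With 16 added to each signal the differences were -6.18 for ICL and -7.19 for NRT2.5. Col-0 lay between the lines at both, at 6.31 ± 0.52 for ICL and 10.48 ± 1.12 for NRT2.5 (SD, n = 3). Of the 12 genes on the list for nitrate and ammonium transport and assimilation, NRT2.5 was the lone member called lower, and 2 were called higher, both of the NRT1/PTR family: AT1G33440 (NPF4.4) at 0.86 (adjusted p = 0.00812) and AT1G59740 (NPF4.3) at 0.66 (adjusted p = 0.0352). AT1G59740 lost its call in 9 of 18 alternative fits, without P35S:rGRF1 replicate 1 or 3 or P35S:rGRF3 replicate 1 or 2 among them, and with the poly-A covariate (adjusted p = 0.108). The list had 25% called, against 10.3% of all named genes.

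PAP20 (AT3G52780) encodes a purple acid phosphatase, of a family that releases phosphate from organic compounds. It read 4.76, 4.26 and 5.49 in P35S:rGRF1, against 8.86, 9.34 and 8.83 in P35S:rGRF3, a difference of -4.17 (SE 0.60, adjusted p = 0.000314), or -3.55 with 16 added. BGLU28 (AT2G44460), a beta-glucosidase gene widely used as a marker of sulfur starvation, read 3.15, 4.35 and 5.25 in P35S:rGRF1, against 8.66, 9.28 and 7.002 in P35S:rGRF3, a difference of -4.06 (SE 0.72, adjusted p = 0.0017). The P35S:rGRF3 arrays spread widely at BGLU28, yet each stayed above all P35S:rGRF1 arrays. PRX52 (AT5G05340), a class III peroxidase of the kind that couples phenolic compounds in cell walls, read 4.42, 1.51 and 4.71 in P35S:rGRF1, against 9.88, 10.11 and 10.35 in P35S:rGRF3, a difference of -6.56 (SE 0.66, adjusted p = 1.21e-05), or -5.18 with 16 added. Col-0 (4.08 ± 0.88) and WS (5.12 ± 0.42) were as dim as P35S:rGRF1 at PRX52, so P35S:rGRF3 stood above the other groups shown. Of 22 beta-glucosidase genes 2 were lower (9.09% of the list, against 10.3% of all named genes), BGLU28 and BGLU16, the second at -0.63 (adjusted p = 0.0471) and lost without P35S:rGRF1 replicate 1 or 2 or P35S:rGRF3 replicate 2 or 3, or with the poly-A covariate (adjusted p = 0.222).

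Further genes of the same size have no name in the annotation used and are given by locus. AT4G33720 read 4.79, 6.06 and 5.68 in P35S:rGRF1, against 12.14, 12.70 and 12.46 in P35S:rGRF3, a difference of -6.92 (SE 0.51, adjusted p = 5.54e-07). AT5G04120 read 6.26, 7.93 and 7.04 in P35S:rGRF1, against 11.47, 11.27 and 10.78 in P35S:rGRF3, a difference of -4.10 (SE 0.37, adjusted p = 5.06e-06). AT4G12490 read 5.81, 5.22 and 5.51 in P35S:rGRF1, against 9.50, 9.80 and 9.70 in P35S:rGRF3, a difference of -4.15 (SE 0.29, adjusted p = 3.67e-07). These genes differ in where the wild types lie. AT5G04120 was as high in Col-0 (11.42 ± 0.79) and WS (11.11 ± 0.33) as in P35S:rGRF3, whereas AT4G12490 was as low in Col-0 (5.36 ± 0.57) as in P35S:rGRF1, and AT4G33720 was nearer P35S:rGRF1 (7.26 ± 1.16 in Col-0). AT5G39520, AT1G55790, AT1G26290 and AT2G30660 complete the 12, at -4.21, -3.84, -3.65 and -3.49 (adjusted p = 7.56e-05, 4.17e-06, 0.00066 and 1.12e-06), and none of their P35S:rGRF1 arrays reached the lowest P35S:rGRF3 array.

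**Figure D3:**
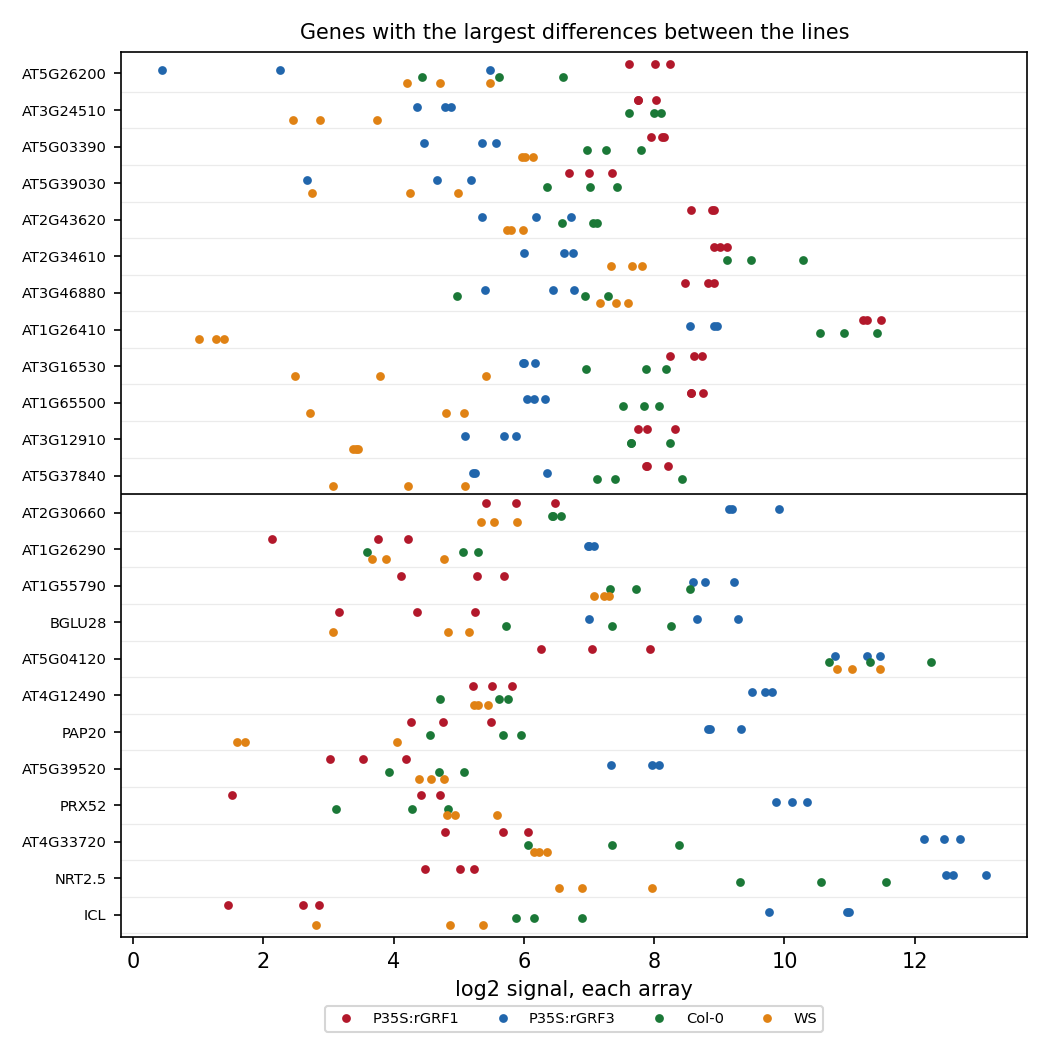
Log2 signal on every array (points, 3 per group) of the 24 genes with the largest differences, 12 higher in P35S:rGRF1 above the line and 12 lower below it. In the lower block, of the 4 groups drawn, P35S:rGRF3 alone is bright at PRX52 and AT4G12490, while at AT5G04120 P35S:rGRF1 alone is dim. In the upper block the P35S:rGRF1 arrays lie right of the P35S:rGRF3 arrays in every row.

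Sugar transporters of the SWEET family were among the genes lower in P35S:rGRF1. SWEET proteins carry sugars across membranes without energy, and SWEET11 to SWEET14 are sucrose exporters. SWEET14 (AT4G25010) read 6.03, 6.44 and 5.74 in P35S:rGRF1, against 8.84, 8.71 and 8.09 in P35S:rGRF3, a difference of -2.47 (SE 0.43, adjusted p = 0.00151). SWEET13 (AT5G50800) read 6.80, 7.12 and 6.48 in P35S:rGRF1, against 8.47, 8.36 and 8.13 in P35S:rGRF3, a difference of -1.52 (SE 0.30, adjusted p = 0.00383). SWEET11 (AT3G48740), much the brightest of these, read 10.68, 11.20 and 10.75 in P35S:rGRF1, against 12.13, 11.80 and 12.54 in P35S:rGRF3, a difference of -1.28 (SE 0.28, adjusted p = 0.00781). At all of them the lines were separated without overlap. Both vacuolar members called went apart, SWEET2 lower at -0.66 (adjusted p = 0.0382) and SWEET16 higher at 0.69 (adjusted p = 0.0144), the second lost without P35S:rGRF1 replicate 3 or P35S:rGRF3 replicate 1. Of 16 SWEET genes 4 were called lower and 1 higher (31.2%, against 10.3% of all named genes), 7 of the 16 had a line mean at or over the 40th percentile, and the median difference was -0.13, against 0.02 for all probe sets. With single line arrays left out the family had 0 to 2 higher and 3 or 4 lower. Only SWEET14 of the family kept its call with the poly-A covariate, at -2.35, adjusted p = 0.0292, while SWEET13, SWEET11 and SWEET16 had adjusted p = 0.0659, 0.0749 and 0.189.

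Enzymes and proteins that build or loosen the cell wall were called in both directions. PMEPCRF (AT5G53370), a pectin methylesterase, which sets how stiff the pectin of a wall becomes, read 8.57, 8.72 and 8.997 in P35S:rGRF1, against 10.57, 10.94 and 10.82 in P35S:rGRF3, a difference of -2.02 (SE 0.16, adjusted p = 1.12e-06), with no overlap. Xyloglucan endotransglucosylases, which cut and rejoin xyloglucan chains, were lower at 3 of 10 genes and higher at none (limma), with 2 higher and 3 lower at an unadjusted p under 0.05. XTH19 (AT4G30290) read 9.57, 10.05 and 9.90 in P35S:rGRF1, against 11.32, 10.90 and 10.78 in P35S:rGRF3, a difference of -1.16 (SE 0.17, adjusted p = 0.000431). XTH18 (AT4G30280), its neighbour on chromosome 4, read 9.19, 9.71 and 9.53 in P35S:rGRF1, against 11.03, 10.45 and 10.20 in P35S:rGRF3, a difference of -1.08 (SE 0.20, adjusted p = 0.00209). EXGT-A3 (XTH27) was lower at -0.48 (adjusted p = 0.0267) and lost this call without P35S:rGRF1 replicate 1 or 2 or P35S:rGRF3 replicate 1, 2 or 3, or with the poly-A covariate (adjusted p = 0.122). The share called, 30%, compares with 10.3% of all named genes, but 8 of the 10 were bright in a line. No test of the list was made.

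Expansins, which loosen walls of growing cells at low pH, split. Of 19 members, 3 were lower and 2 higher (26.3%, against 10.3% of all named genes), and without P35S:rGRF1 replicate 1 there were 1 and 1. EXLB1 was lower at -1.27 (adjusted p = 0.0239), EXPA8 at -1.17 (adjusted p = 0.00217) and EXPA18 at -0.54 (adjusted p = 0.0395). EXPA15 was higher at 1.15 (adjusted p = 0.00249) and EXPA20 at 0.64 (adjusted p = 0.0195). EXPA15 (AT2G03090) was the brightest of these, at 12.21, 11.97 and 12.19 in P35S:rGRF1, against 11.36, 10.81 and 10.76 in P35S:rGRF3. EXPA18, a root hair expansin, lost its call without P35S:rGRF1 replicate 1 or 2 or P35S:rGRF3 replicate 1, 2 or 3. EXLB1 lost it without P35S:rGRF1 replicate 1, 2 or 3 or P35S:rGRF3 replicate 2 or 3, and EXPA20 without P35S:rGRF1 replicate 1 or P35S:rGRF3 replicate 1. The cell shape gene COB, which orients cellulose, was lower at -0.38 (adjusted p = 0.016). CSLC12, of the family that makes the xyloglucan backbone, was lower at -0.98 (adjusted p = 0.0223). They were the 2 calls among 12 cellulose synthases and related genes (16.7%, against 10.3% of all named genes). COB lost its call without P35S:rGRF1 replicate 1 or 2, and CSLC12 without P35S:rGRF1 replicate 1 or 3 or P35S:rGRF3 replicate 1 or 2. Beta-tubulin genes TUB1 (-0.66, adjusted p = 0.00131) and TUB9 (-0.51, adjusted p = 0.0236) were the 2 called of 7 tubulins (28.6%, all 7 bright in a line), both lower. GH9C2, a cellulase, was higher at 0.84 (adjusted p = 0.0175). TUB9 lost its call without P35S:rGRF1 replicate 1, 2 or 3 or P35S:rGRF3 replicate 2 or 3, and GH9C2 without P35S:rGRF1 replicate 1 or 3 or P35S:rGRF3 replicate 3. With the poly-A covariate EXLB1, EXPA18, COB, TUB9 and GH9C2 lost their calls (adjusted p = 0.317, 0.262, 0.165, 0.352 and 0.23).

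Signalling peptide genes that passed the test were all lower in P35S:rGRF1, 3 of the 18 on the list (16.7%, against 10.3% of all named genes). CLE44 (AT4G13195) encodes a peptide that keeps vascular stem cells dividing, and it read 8.07, 8.16 and 8.43 in P35S:rGRF1, against 10.03, 9.46 and 9.58 in P35S:rGRF3, a difference of -1.47 (SE 0.22, adjusted p = 0.000487). RALFL22 read 10.89, 11 and 11.07 in P35S:rGRF1, against 11.77, 11.81 and 11.62 in P35S:rGRF3, a difference of -0.75 (SE 0.10, adjusted p = 0.000133). RALFL33 (AT4G15800) read 11.41, 11.29 and 11.42 in P35S:rGRF1, against 11.92, 12.16 and 12.10 in P35S:rGRF3, a difference of -0.69 (SE 0.10, adjusted p = 0.00037). RALF peptides raise the pH outside cells and restrain their expansion, and at all of these genes the lines were separated without overlap.

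Of 29 WRKY and other early immune genes 4 were lower in P35S:rGRF1 and 0 higher (limma, adjusted p under 0.05), or 1 higher and 7 lower at an unadjusted p under 0.05, with 21 of the 29 at or over the 40th percentile in a line. BIK1 (AT2G39660), a cytoplasmic kinase beneath immune receptors, read 9.90, 9.94 and 9.95 in P35S:rGRF1, against 10.66, 10.79 and 10.70 in P35S:rGRF3, a difference of -0.79 (SE 0.09, adjusted p = 4.67e-05). The calcium sensor gene CML23 was lower at -1.09 (adjusted p = 0.00622) and the ubiquitin ligase gene PUB23 at -0.54 (adjusted p = 0.0481). The share called, 13.8%, is near the 10.3% of all named genes. Without P35S:rGRF3 replicate 3 the counts were 1 higher and 6 lower, and with any other line array left out they were 0 higher and 2 or 3 lower. PUB23 lost its call without P35S:rGRF1 replicate 1, 2 or 3 or P35S:rGRF3 replicate 1 or 2, or with the poly-A covariate (adjusted p = 0.0655).

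**Figure D4:**
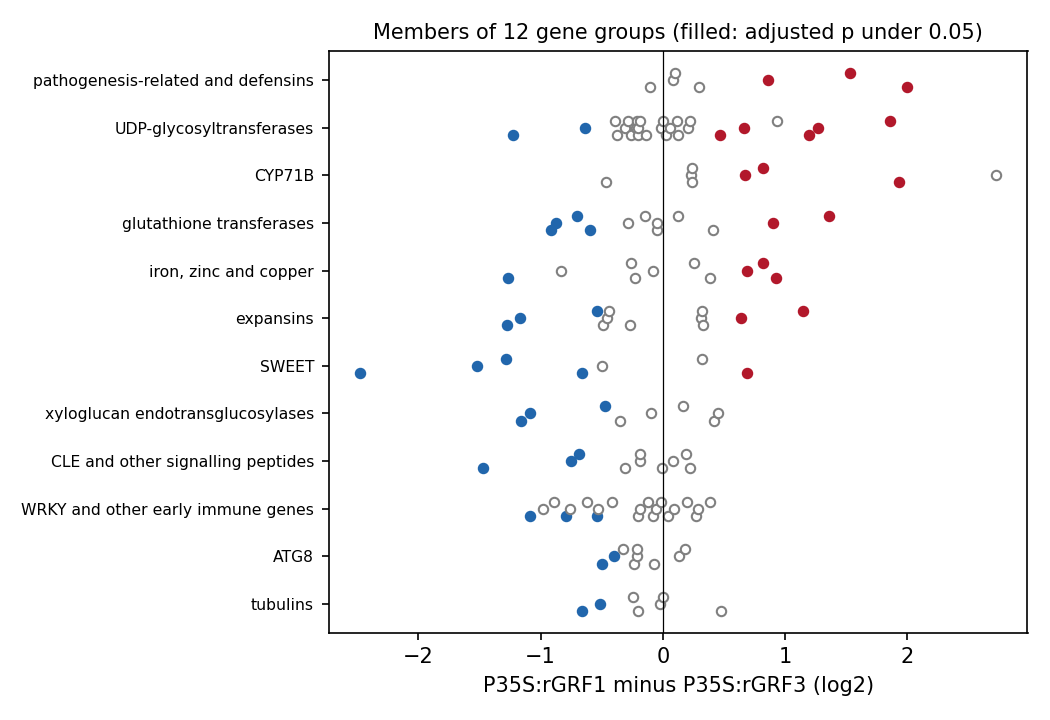
Each point is a member of 1 of 12 gene groups (rows) whose line mean reached the 40th percentile, and the x axis gives P35S:rGRF1 minus P35S:rGRF3 (log2). Filled points passed an adjusted p of 0.05. Among these members, calls in the bottom 5 rows lie below 0 and calls in the pathogenesis-related and CYP71B rows above 0, while the other groups have both.

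None of the 12 genes with the largest differences higher in P35S:rGRF1 has a name in the annotation used. AT5G26200 read 8.24, 7.62 and 8.01 in P35S:rGRF1, against 0.45, 2.26 and 5.49 in P35S:rGRF3, a difference of 5.23 (SE 0.95, adjusted p = 0.00205), or 3.24 with 16 added. AT3G24510 read 7.75, 8.03 and 7.75 in P35S:rGRF1, against 4.88, 4.79 and 4.36 in P35S:rGRF3, a difference of 3.17 (SE 0.40, adjusted p = 8.31e-05). AT1G26410 read 11.49, 11.20 and 11.27 in P35S:rGRF1, against 8.93, 8.54 and 8.97 in P35S:rGRF3, a difference of 2.51 (SE 0.25, adjusted p = 1.02e-05). AT1G26410 was the 1 of the 12 with both line means over the 40th percentile, and the P35S:rGRF3 arrays at AT5G26200 ranged most widely. AT5G03390, AT5G39030, AT2G43620, AT2G34610, AT3G46880, AT3G16530, AT1G65500, AT3G12910 and AT5G37840 ranged over 2.39 to 2.94. At all 12 every P35S:rGRF1 array lay above every P35S:rGRF3 array. AT2G43620, AT5G39030, AT3G16530 and AT5G37840 lost their calls with the poly-A covariate, at 1.78, 2.17, 2.40 and 1.84 (adjusted p = 0.118, 0.168, 0.0967 and 0.144).

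Some genes of glucosinolate synthesis, glycosylation and defence were higher in P35S:rGRF1. Roots make glucosinolates, glycosylated phenolics, terpenes and antimicrobial proteins that act on microbes and herbivores. BCAT4 (AT3G19710), an aminotransferase at the entry to methionine-derived glucosinolates, read 12.02, 11.97 and 12.10 in P35S:rGRF1, against 9.71, 8.36 and 11.24 in P35S:rGRF3, a difference of 2.26 (SE 0.55, adjusted p = 0.0131). P35S:rGRF1 was tight at BCAT4 while P35S:rGRF3 spread over nearly 3 units, and without P35S:rGRF3 replicate 2 the call was lost (1.55, adjusted p = 0.057). GSTU20, a glutathione transferase of the same pathway, was higher at 0.90 (adjusted p = 0.0204), and UGT74B1, a glucosyltransferase of glucosinolate synthesis, at 0.67 (adjusted p = 0.00335). GSTU20 lost its call without P35S:rGRF1 replicate 2 or 3 or P35S:rGRF3 replicate 2, or with the poly-A covariate (adjusted p = 0.0573). Of 7 genes listed for methionine glucosinolates, BCAT4 and GSTU20 were the calls (28.6%, against 10.3% of all named genes), and neither was called without P35S:rGRF3 replicate 2.

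CHI (AT2G43570), annotated as a putative chitinase, read 11.55, 11.51 and 11.69 in P35S:rGRF1, against 9.59, 9.63 and 9.53 in P35S:rGRF3, a difference of 2 (SE 0.20, adjusted p = 1.39e-05). PDF2.1 (AT2G02120), of the defensin-like proteins, read 9.62, 9.45 and 9.69 in P35S:rGRF1, against 8.21, 7.14 and 8.81 in P35S:rGRF3, a difference of 1.53 (SE 0.31, adjusted p = 0.00416). The class V chitinase gene ChiC was higher at 0.86 (adjusted p = 0.00553). Of 19 pathogenesis-related and defensin genes 4 were higher and 0 lower (limma, adjusted p under 0.05), or 4 and 0 with the poly-A covariate. The share called was 21.1%, against 10.3% of all named genes. At an unadjusted p under 0.05 they were 6 higher and 0 lower. PRX71 (AT5G64120) read 11.54, 11.96 and 11.87 in P35S:rGRF1, against 9.92, 9.98 and 10.12 in P35S:rGRF3, a difference of 1.79 (SE 0.16, adjusted p = 5.44e-06). PRX25 (AT2G41480) was higher at 1.65 (adjusted p = 0.000806) and Prx37 lower at -0.65 (adjusted p = 0.0143), the second lost without P35S:rGRF1 replicate 1 or P35S:rGRF3 replicate 2, or with the poly-A covariate (adjusted p = 0.147). With PRX52 these were the 4 calls among the 6 class III peroxidases on the list (66.7%, against 10.3% of all named genes), 2 in each direction. The list holds only genes matched by its patterns, so these counts do not describe the whole peroxidase family. The lectin gene JAL22 was higher at 0.97 (adjusted p = 4.85e-05), the 1 call of 7 genes listed for ER bodies, jacalins and lectins (14.3%).

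CYP71B6 (AT2G24180), a cytochrome P450 gene, read 12.10, 12.22 and 12.10 in P35S:rGRF1, against 10.15, 10.39 and 10.09 in P35S:rGRF3, a difference of 1.93 (SE 0.18, adjusted p = 5.52e-06). CYP71B34 (0.82, adjusted p = 0.0122) and CYP71B28 (0.67, adjusted p = 0.00184) were also higher. CYP71B5 was lower at -4.58 but read below the 40th percentile in both lines. Of 19 CYP71B genes 3 were higher and 1 lower (21.1%, against 10.3% of all named genes). Over all 24 cytochrome P450 genes listed, calls were even, with 3 higher and 3 lower (25%). CYP78A9 at -1.185 and CYP718 at -0.947 were also lower. CYP718 lost its call without P35S:rGRF1 replicate 2 or P35S:rGRF3 replicate 2 or 3, or with the poly-A covariate (adjusted p = 0.184). UGT72E1 (AT3G50740), which attaches glucose to lignin precursors, read 11.44, 11.54 and 11.49 in P35S:rGRF1, against 9.25, 9.64 and 10.01 in P35S:rGRF3, a difference of 1.86 (SE 0.16, adjusted p = 2.28e-06). UGT72E2, of the same function, read 12.72, 12.84 and 12.77 in P35S:rGRF1, against 11.54, 11.79 and 11.41 in P35S:rGRF3, a difference of 1.20 (SE 0.15, adjusted p = 6.65e-05). GT72B1 (UGT72B1, AT4G01070), a related glucosyltransferase, went the other way, at 11.25, 11.56 and 11.35 in P35S:rGRF1, against 12.69, 12.48 and 12.67 in P35S:rGRF3, a difference of -1.23 (SE 0.12, adjusted p = 6.38e-06). Members of the UGT72 family were thus called in opposite directions, and over all 51 UDP-glycosyltransferases 5 were higher and 2 lower, with a median of -0.19. The share called there, 13.7%, is near the 10.3% of all named genes. HCT, an enzyme of lignin synthesis, was lower at -0.50 (adjusted p = 0.00783), and the cineole synthase gene TPS-CIN (AT3G25830) was higher at 1.31 (adjusted p = 0.000529). Glutathione transferases split as well, with 2 higher and 4 lower of 14 (42.9%), or 0 and 2 with the poly-A covariate. GSTU21 was higher at 1.36 (adjusted p = 0.0063), beside GSTU20, and the lower ones were led by GSTU26 at -0.91 (adjusted p = 0.000637) and GSTU28 at -0.87 (adjusted p = 0.0104). GSTU28 lost its call without P35S:rGRF1 replicate 1 or P35S:rGRF3 replicate 2. With the poly-A covariate CYP71B34, HCT, GSTU21 and GSTU28 lost their calls (adjusted p = 0.0573, 0.0915, 0.0553 and 0.159).

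Plastid-encoded genes were the list with the most calls in 1 direction. Of 69 named on the array, 32 were higher in P35S:rGRF1 and none lower (46.4% called, against 10.3% of all named genes), 61 had a positive difference, and the median was 0.66, against 0.02 for all probe sets. At an unadjusted p under 0.05 there were 41 higher and 0 lower. This list was added after the annotation was seen, and 41 of its members had a line mean at or over the 40th percentile. The plastid genome encodes part of photosynthesis, ATP synthase and the plastid ribosome, and root plastids are largely colourless and carry out other metabolism. The median over the 69 genes read 8.33, 8.37 and 8.19 in P35S:rGRF1, against 7.45, 7.59 and 7.22 in P35S:rGRF3, with no overlap. Col-0 read 7.77, 7.62 and 7.53, below every P35S:rGRF1 array and overlapping P35S:rGRF3, and WS read 8.78, 8.07 and 8.55. Col-0 minus WS was called at 6 of the 69 genes upward and 29 downward.

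Of the plastid genes, atpA, a subunit of ATP synthase, read 9.45, 9.16 and 8.88 in P35S:rGRF1, against 7.32, 7.65 and 7.85 in P35S:rGRF3, a difference of 1.55 (SE 0.26, adjusted p = 0.00116). petA, for cytochrome f, read 9.99, 10.06 and 9.84 in P35S:rGRF1, against 8.06, 8.62 and 9.002 in P35S:rGRF3, a difference of 1.4 (SE 0.28, adjusted p = 0.00417). The photosystem I gene psaJ was higher at 1.29 (adjusted p = 0.00137), rbcL, for the large subunit of Rubisco, at 0.84 (adjusted p = 0.00544), and the ribosomal protein gene rpl16 at 1.15 (adjusted p = 0.00209). The calls thus covered ATP synthase, photosystem, Rubisco and ribosome genes. The maturase gene matK was higher at 1.25 (adjusted p = 0.0414), but lost its call in 10 of 18 alternative fits, without P35S:rGRF1 replicate 1, 2 or 3 or P35S:rGRF3 replicate 3 among them. With single line arrays left out the list had 20 to 30 higher and 0 lower (limma, adjusted p under 0.05), 20 without P35S:rGRF1 replicate 1 and 30 without P35S:rGRF3 replicate 3. It had 26 higher after median centring and 13 with the poly-A covariate, with medians of 0.56 and 0.68, and matK had an adjusted p = 0.536 with the covariate. In bulk roots fewer cells or plastids of a kind and less RNA in each cannot be told apart.

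**Figure D5:**
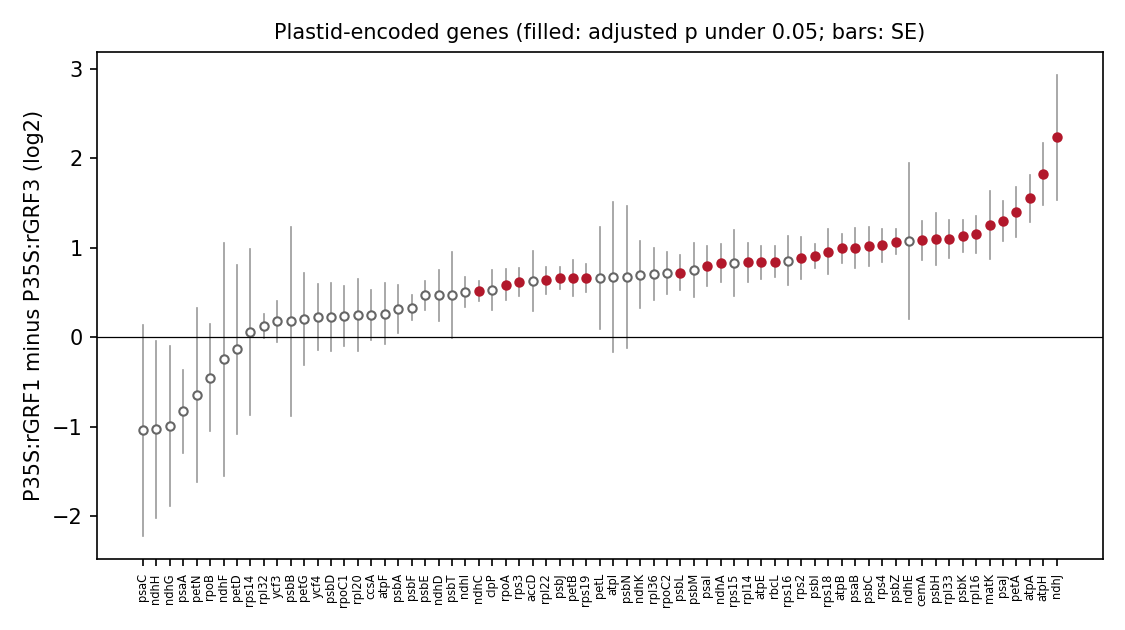
P35S:rGRF1 minus P35S:rGRF3 (y axis, log2, bars are SE) for the 69 plastid-encoded genes, ordered by their difference along the x axis. The 32 filled points passed an adjusted p of 0.05, all above 0, up to 2.23 for ndhJ, and none of the 8 genes below 0 passed.

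Nuclear genes of photosynthesis gave 1 call of 7 (14.3%, against 10.3% of all named genes). LHCB4.1 differed by 0.57 (adjusted p = 0.185) and RCA by 0.53 (adjusted p = 0.0744), the 2 of 24 listed green-tissue markers that are named on the array. The call was PSBY, a photosystem II protein gene, at 0.58 (adjusted p = 0.00964). The median of the 7 was 0.57, and 6 higher and 0 lower had an unadjusted p under 0.05. Without P35S:rGRF3 replicate 3, or with the filter at the 40th percentile, 3 were called higher. The 25S ribosomal RNA and poly-A controls were also higher in P35S:rGRF1, and their part in the plastid result was not tested apart from the covariate. Mitochondria-encoded genes had 2 of 16 higher and 0 lower (limma, adjusted p under 0.05), or 6 higher and 0 lower at an unadjusted p under 0.05, ccb452 at 0.90 (adjusted p = 0.00124) and nad4 at 0.80 (adjusted p = 0.0493), of which nad4 lost its call in 14 of 18 alternative fits, without P35S:rGRF1 replicate 1 or 2 or P35S:rGRF3 replicate 1, 2 or 3 and with the poly-A covariate (adjusted p = 0.273) among them. The ccb452 probe set is one that can match several targets. Of 22 root markers 3 were named. The ER-body gene PYK10 read 14.18, 14.11 and 14.15 in P35S:rGRF1, against 14.04, 14.04 and 14.04 in P35S:rGRF3, and differed by 0.11 (adjusted p = 0.632), and the root hair expansins EXPA7 and EXPA18 differed by -0.46 (adjusted p = 0.0767) and -0.54.

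Metal homeostasis genes were called in both directions. ZIP9 (AT4G33020), a transporter gene that rises in zinc-poor roots, read 9.53, 10.10 and 9.49 in P35S:rGRF1, against 11.05, 10.74 and 11.13 in P35S:rGRF3, a difference of -1.27 (SE 0.28, adjusted p = 0.00696). bZIP19, a zinc-deficiency regulator known to act on ZIP genes, was lower too, at -0.53 (adjusted p = 0.00572). Both lines exceeded Col-0 (8.55 ± 0.15) at ZIP9. The iron-deficiency regulator gene BHLH101 was higher at 0.92 (adjusted p = 0.0365), ZIP6 at 0.82 (adjusted p = 0.00611) and the copper chaperone gene CCS at 0.69 (adjusted p = 0.0166), so that 3 of 11 listed genes were higher and 1 lower (36.4%, against 10.3% of all named genes). BHLH101 lost its call without P35S:rGRF1 replicate 1 or 3 or P35S:rGRF3 replicate 1 or 2, and CCS without P35S:rGRF1 replicate 1 or 3 or P35S:rGRF3 replicate 2. Of the 11 listed genes 10 were bright in a line. bHLH115, another regulator of iron uptake, was lower at -0.62 (adjusted p = 0.00156). With the poly-A covariate none of the 11 kept its call, with adjusted p = 0.0973, 0.107, 0.0929 and 0.106 for ZIP9, BHLH101, ZIP6 and CCS. bZIP19 and bHLH115 lost theirs too (adjusted p = 0.129 and 0.0516).

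Hormone genes were called in both directions. GH3.17 (AT1G28130), which joins auxin to amino acids, read 11.30, 11.13 and 11.35 in P35S:rGRF1, against 9.99, 10.40 and 10.34 in P35S:rGRF3, a difference of 1.02 (SE 0.16, adjusted p = 0.000659). GID1B, a gibberellin receptor, was lower at -0.61 (adjusted p = 0.00401). The late embryogenesis abundant gene AT2G46140 (LEA27) was lower at -1.04 (adjusted p = 0.00105). At each of these the lines did not overlap, and auxin genes gave 2 calls of 16, gibberellin genes 1 of 3 (33.3%), and genes of abscisic acid and water stress 2 of 12 (16.7%), against 10.3% of all named genes. The auxin list had 2 calls without P35S:rGRF3 replicate 1 and 1 call without each other line array. The abscisic acid list had 1 call without P35S:rGRF1 replicate 1, and each of these 2 lists had 1 with the poly-A covariate. None of 7 cytokinin genes passed (limma), with 0 higher and 0 lower at an unadjusted p under 0.05, and none of the 7 reached the 40th percentile in a line. Among 11 cell cycle genes, HBT, a subunit of the anaphase-promoting complex, was the 1 call, at 0.37 (adjusted p = 0.0402). That share, 9.09%, is near the 10.3% of all named genes. The HBT call was lost without P35S:rGRF1 replicate 1, 2 or 3 or P35S:rGRF3 replicate 1 or 3, or with the poly-A covariate (adjusted p = 0.179). None of 8 core histone genes was called (limma), with 1 higher and 0 lower at an unadjusted p under 0.05, and their median difference was 0.

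Of 9 ATG8 autophagy genes, all bright in a line, 2 were lower (22.2%, against 10.3% of all named genes). They were ATG8H at -0.50 (adjusted p = 0.00936) and APG8A at -0.40 (adjusted p = 0.0487). ATG8H lost its call without P35S:rGRF1 replicate 1, and APG8A without P35S:rGRF1 replicate 1, 2 or 3 or P35S:rGRF3 replicate 1 or 2, or with the poly-A covariate (adjusted p = 0.0863). Of 38 subtilases and serine carboxypeptidases 3 were higher and 1 lower (10.5%, near the 10.3% of all named genes). With single line arrays left out they had 0 to 2 higher, 0 without P35S:rGRF1 replicate 2, and 0 or 1 lower, and with the poly-A covariate 0 and 0. ATSBT5.2 (AT1G20160), a subtilase gene by its name that is not on that list, read 9.78, 9.93 and 10.17 in P35S:rGRF1, against 7.44, 7.40 and 8.79 in P35S:rGRF3, a difference of 2.08 (SE 0.30, adjusted p = 0.000277). The lines did not overlap there, although P35S:rGRF3 replicate 3 lay nearest to P35S:rGRF1. MCCA, of leucine breakdown, was higher at 0.96 (adjusted p = 0.0112) and lost its call without P35S:rGRF3 replicate 2, or in the fit with the covariate (adjusted p = 0.106), and BZIP24, a salt stress factor, was higher at 1.06 (adjusted p = 0.00715). Of 15 tetraspanins 1 was higher and 2 lower (20%), and without P35S:rGRF1 replicate 2 none was called. Of 31 secretion genes 2 were higher and 1 lower (9.68%), and of 22 TBL wall acetylation genes 1 was lower (4.55%).

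The direct comparison can be set beside the difference between the wild types that the labels name. Col-0 and WS differed at 8061 probe sets (35.4%), and they share no array with the lines. Of the 2732 probe sets called between the lines, 1516 were also called between Col-0 and WS, 55.5% of the line calls and 18.8% of the wild-type calls. Of these 1516, 444 (29.3%) had the direction of Col-0 minus WS and 1072 (70.7%) the opposite one. Of the 1528 calls higher in P35S:rGRF1, 308 (20.2%) were also higher in Col-0 than in WS and 635 (41.6%) lower. Of the 1204 lower calls, 136 (11.3%) went with the wild types and 437 (36.3%) against. Over all probe sets Col-0 minus WS was called higher at 14.9% and lower at 20.5%. The 12 largest genes higher in P35S:rGRF1 were unlike the bulk of higher calls. Of these 12, 9 were also higher in Col-0 than in WS and 0 lower (limma, adjusted p under 0.05). Of the 12 largest lower in P35S:rGRF1, 5 went opposite to the wild types, 0 went with them and 7 did not pass there.

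AT1G26410, one that had the direction of the wild types, averaged 11.32 ± 0.15 in P35S:rGRF1, 8.81 ± 0.23 in P35S:rGRF3, 10.96 ± 0.44 in Col-0 and 1.23 ± 0.20 in WS (SD, n = 3 each). Its wild-type difference was 9.73 (adjusted p = 2.37e-13). AT3G24510 differed by 4.89 (adjusted p = 1.45e-07) between the wild types and AT2G34610 by 2.03 (adjusted p = 2.17e-05). At 7 of the 9 genes shared with the wild types the P35S:rGRF3 mean lay between WS and Col-0. Among genes lower in P35S:rGRF1 and lower in Col-0 than in WS, AT2G36690 differed by -2.29 between the lines, AT2G17710 by -1.55, AT2G02630 by -1.48, AT3G29410 by -1.30 and ATC, a relative of the flowering repressor TFL1, by -1.28. AT3G29410 lost its call between the lines with the poly-A covariate (adjusted p = 0.0516).

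Against the direction of the wild types, AT3G25790 read 9.37, 9.21 and 9.21 in P35S:rGRF1, against 7.03, 6.54 and 7.29 in P35S:rGRF3, a difference of 2.31 (SE 0.37, adjusted p = 0.000669), whereas Col-0 minus WS was -2.73 (adjusted p = 2.52e-05). AT5G52790 differed by 2.18 (SE 0.43, adjusted p = 0.00365) between the lines and by -1.22 (adjusted p = 0.0369) between the wild types. ATSBT5.2 differed by -1.63 (adjusted p = 0.000442) between the wild types, against the line difference given above. On the lower side ICL, NRT2.5 and PAP20 were higher in Col-0 than in WS, by 1.96 (adjusted p = 0.014), 3.34 (adjusted p = 1.73e-05) and 2.94 (adjusted p = 0.00115). At these genes the line difference had the opposite sign and the larger size.

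The difference between the 2 differences was tested in the same fit. The line difference departed from Col-0 minus WS at 7370 of 22746 probe sets (32.4%), 4321 upward and 3049 downward. After median centring it was 7094, with 3232 upward and 3862 downward. This contrast takes the ecotype label of P35S:rGRF3 at its word. The labels name no array set, but the hybridization controls put WS apart from Col-0 and both lines. The 3' minus 5' log2 signal of plant control probe sets did so too. It averaged 1.59 in WS and 1.395 in the triple mutant, against 1.01 in Col-0 and 1.06 in each line. Line, ecotype and these differences in controls cannot be told apart in the contrast. In Col-0 minus WS itself, ecotype and these differences likewise cannot be told apart. Genes that passed both this test and the direct one in the same direction included NRT2.5 at -11.16 (adjusted p = 8.8e-09), ICL at -10.22 (adjusted p = 2.81e-07) and PRX52 at -5.52 (adjusted p = 0.000279) on the lower side. On the higher side they were AT5G26200 at 4.47 (adjusted p = 0.0174), AT3G46880 at 3.53 (adjusted p = 0.000726), AT1G49570 at 2.74 (adjusted p = 0.00841), AT2G30540 at 3.27 (adjusted p = 0.00104), AT5G03390 at 1.64 (adjusted p = 0.00639) and BCAT4 at 2.58 (adjusted p = 0.017). AT2G30540 lost its call between the lines with the poly-A covariate (adjusted p = 0.0519). UGT72E1 (0.04, adjusted p = 0.91), CYP71B6 (-0.40, adjusted p = 0.253) and TPS-CIN (-0.58, adjusted p = 0.14) did not pass, and in each the line difference and the wild-type difference had 1 sign.

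Each line can also be placed against Col-0, whose arrays lie with those of the lines by the hybridization controls and by the ecotype count. These comparisons share the Col-0 arrays, so they are read for single genes. The genes shown do not stand for all 2732 line calls, at 1390 of which neither line was called against Col-0. For NRT2.5 the differences from Col-0 were -5.56 (adjusted p = 1.41e-05) for P35S:rGRF1 and 2.25 (adjusted p = 0.0042) for P35S:rGRF3, and for ICL -3.999 (adjusted p = 0.00144) for P35S:rGRF1 and 4.26 (adjusted p = 0.000215) for P35S:rGRF3. PRX52 gave -0.53 (adjusted p = 0.737) for P35S:rGRF1 and 6.03 (adjusted p = 3.03e-05) for P35S:rGRF3. AT5G04120 gave -4.34 (adjusted p = 2.69e-05) for P35S:rGRF1 and -0.24 (adjusted p = 0.809) for P35S:rGRF3, and SWEET14 -3.31 (adjusted p = 0.000705) for P35S:rGRF1 and -0.84 (adjusted p = 0.316) for P35S:rGRF3. At NRT2.5 and ICL both lines left Col-0 in opposite directions, at PRX52 the P35S:rGRF3 value passed and at AT5G04120 and SWEET14 the P35S:rGRF1 value passed. On the higher side CYP71B6 gave 0.14 (adjusted p = 0.753) for P35S:rGRF1 and -1.79 (adjusted p = 1.16e-05) for P35S:rGRF3, UGT72E1 gave -0.24 (adjusted p = 0.453) for P35S:rGRF1 and -2.09 (adjusted p = 6.81e-07) for P35S:rGRF3, and PDF2.1 gave 2.48 (adjusted p = 0.000501) for P35S:rGRF1 and 0.95 (adjusted p = 0.0847) for P35S:rGRF3.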

How the data were processed

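Total RNA from roots was read on 15 one-colour arrays of 22810 probe sets, 64 of them controls. The deposited values are intensity per probe set, made with MAS5 per the submitters' processing notes, whose version is not given in the sources used here. Each array has the same 2% trimmed mean, as after scaling to a common target. The values were taken to log2 here, with no further normalization and no filter. limma 3.58.1 in R 4.3.3 (with data.table, version 1.17.8) fitted the means of the 5 groups on all 15 arrays (lmFit, eBayes with a trend), and p-values were adjusted by the Benjamini-Hochberg method over 22746 probe sets. The fit was tested on simulated data. The number of arrays, 3 per group, limits the precision.

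Genes were named through the platform annotation, 1 probe set per gene (the brightest), for 13355 genes. Lists were filled by matching patterns to names, synonyms and loci, so a list may hold only part of its family. The genes named in the text reached the 40th percentile of mean signal in a line and were the 12 largest without overlap per direction, the 8 largest that also departed from Col-0 minus WS, the 5 with and the 3 against the direction of Col-0 minus WS, and up to 4 called members per list. SWEET2, CYP71B5, rbcL, rpl16 and ndhJ were chosen after their values were seen. Lists, members and rules were chosen with earlier results of these data known, 13 lists came only once the annotation had been read, and 53 lists had members, of which 1 is not reported here. Unused columns of sample values numbered 0. Alternatives were filters, an offset, normalizations, variance models, a replicate term, a minimum change, single arrays left out and, added after seeing the data, the poly-A covariate and list counts after median centring.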

Additional observations from a re-analysis of the deposited data

Results flagged for a closer look

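The contrast of the line difference minus Col-0 minus WS was called at 7370 probe sets. Col-0 minus WS, which is part of it, was called at 8061. Of the 2732 calls between the lines, 1926 passed this contrast in the same direction and 105 in the opposite one. Line, ecotype label and array controls cannot be told apart in it. The 25S ribosomal RNA control probe set, which no comparison used, averaged 12.875 on the log2 scale in P35S:rGRF1, against 11.684 in P35S:rGRF3 and 12.208 in Col-0, so a control signal was above the level of the wild type.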

How the results depend on the processing

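The count between the lines (2732) was 228 with a minimum change of 1.5-fold, 89 higher and 139 lower, and 1162 with the poly-A covariate. With single arrays left out it ranged over 1487 to 2688, and was 1487 without P35S:rGRF1 replicate 1 and 1706 without P35S:rGRF1 replicate 3. The count for Col-0 minus WS (8061) was 4828 with a filter at the 60th percentile and 1851 with the minimum change, and ranged over 6856 to 7297 with single arrays left out. The count for the line difference minus the wild-type difference (7370) was 4589 and 2340 in these settings and ranged over 6434 to 7200. The filter tests fewer probe sets by construction, and the cause of the other changes was not tested. The mean share of probe sets at which P35S:rGRF3 lay nearer Col-0 was 95.3% and became 90% with wild-type differences of at least 2 log2 units. The other settings moved these counts by less than 1.5 times, and no named gene changed sign. With replicate number as a block the counts were 2523, 7855 and 7214. Over all probe sets, deviations of same-numbered arrays of the lines correlated at 0.008, -0.015 and -0.002. These values take in dim probe sets and cover the 2 lines alone, so they do not settle whether same-numbered arrays were paired. Of 118 named genes, 33 kept direction and call in every setting that tested them, 85 lost the call with the minimum change, 45 with the poly-A covariate, 18 without the trend and 6 with the block. A search of promoters for a shortened motif was not run, since no promoter sequence was used here. Dim probe sets limit the size of the largest differences.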

Other observations

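The calls were spread over the genome. Of the named genes on chromosomes 1 to 5, 11.2%, 9.59%, 9.93%, 9.87% and 9.29% were called between the lines. Among the 128 probe sets that separate Col-0 from WS, P35S:rGRF3 lay nearer WS at few named genes. AT5G06730 was one, with means of 8.74 in P35S:rGRF1, 6.88 in P35S:rGRF3, 9.02 in Col-0 and 4.96 in WS, and AT3G12910 and AT3G24510 were others.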
